A study of Rattus norvegicus with 145 samples.

Results

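The genes described here were 10 circadian clock genes of rat liver, taken by symbol from the gene count tables of the study: Arntl, Clock, Npas2, Per1, Per2, Per3, Cry1, Nr1d1, Nr1d2 and Dbp. All 10 were present among the 17337 genes listed, and all 10 passed the filter on low counts in each of 5 data sets, which tested between 11279 and 11497 genes. The study gavaged Wistar rats daily with acetamide in water, or with water alone, and sequenced messenger RNA of the left liver lobe from 145 rats in 29 groups of 5. Experiment A used Hsd:WI males aged 9 to 10 weeks dosed for 7 days, in mg/kg/day (mkd), with 0, 30, 100, 300 and 1000. Experiment B used Crl:WI males and females aged 8 to 10 weeks given 0, 300, 500, 750, 1000 or 1500 mkd for 7 or 28 days, with tissue taken on day 8 or day 29. Rats were kept on a light:dark cycle, fasted overnight before tissue was taken, and in experiment B killed in a randomized order. The paper gives lessening the effect of circadian rhythm as the aim of that order. The clock time at which each liver was taken is not in the sample labels and was not analysed here.

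The circadian clock is a feedback loop of transcription factors that runs in nearly every cell, including hepatocytes. ARNTL (also called BMAL1) pairs with CLOCK, or with its relative NPAS2, and switches on the Per, Cry, Nr1d and Dbp genes through E-box elements. PER and CRY proteins then shut that pair off, and the REV-ERB receptors, encoded by Nr1d1 and Nr1d2, repress Arntl, Clock and Npas2. In rodent liver Arntl and Npas2 transcripts therefore peak when Dbp, Nr1d1 and Per3 transcripts are low, Cry1 peaks later than the other E-box genes, and Per1 also answers directly to glucocorticoids and to cyclic AMP. DBP, a PAR bZIP factor, carries the rhythm to liver output genes through D-box elements.

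Promoter sequence of 9 of the 10 genes was found in the RefSeq table for the GRCr8 build, and Cry1 was not matched. The 250 bases before each start were searched on both strands for the E-box CACGTG, the E-box variant CACGTT, the AGGTCA core bound by REV-ERB and ROR receptors, the D-box TTANGTAA and the cyclic AMP response element TGACGTCA. These letters did not overlap one another in any member. The 4 stretches below are shown because they hold matches to some of these motifs, with every match in capitals. Arntl lies at chr1:176766078-176766327 on the plus strand and holds AGGTCA from 15 to 10 bases before the start. Nr1d2 lies at chr15:9954784-9955033 on the plus strand and holds AGGTCA from 187 to 182 bases before the start. Per2 lies at chr9:99496994-99497243 on the minus strand and holds TTATGTAA from 192 to 185 bases and CACGTT from 62 to 57 bases before the start. The first of the 2 Nr1d1 entries lies at chr10:84229455-84229704 on the minus strand and holds CACGTG from 191 to 186 bases before the start, and the other entry holds CACGTT on its reverse strand.
Arntl: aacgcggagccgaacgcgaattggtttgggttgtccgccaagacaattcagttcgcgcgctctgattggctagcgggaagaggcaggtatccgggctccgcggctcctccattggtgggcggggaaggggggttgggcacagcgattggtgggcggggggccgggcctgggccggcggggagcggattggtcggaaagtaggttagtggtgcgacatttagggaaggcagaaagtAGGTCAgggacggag
Nr1d2: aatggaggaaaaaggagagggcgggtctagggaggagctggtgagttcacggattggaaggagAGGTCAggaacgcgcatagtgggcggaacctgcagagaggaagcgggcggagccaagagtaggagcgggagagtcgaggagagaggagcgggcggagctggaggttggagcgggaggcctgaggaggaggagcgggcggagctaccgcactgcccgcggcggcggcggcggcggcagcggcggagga
Per2: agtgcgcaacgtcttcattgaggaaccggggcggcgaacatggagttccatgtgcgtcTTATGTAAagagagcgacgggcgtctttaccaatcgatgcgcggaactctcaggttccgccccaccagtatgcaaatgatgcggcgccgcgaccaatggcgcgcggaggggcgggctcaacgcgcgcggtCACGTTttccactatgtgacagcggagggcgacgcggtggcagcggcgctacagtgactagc
Nr1d1: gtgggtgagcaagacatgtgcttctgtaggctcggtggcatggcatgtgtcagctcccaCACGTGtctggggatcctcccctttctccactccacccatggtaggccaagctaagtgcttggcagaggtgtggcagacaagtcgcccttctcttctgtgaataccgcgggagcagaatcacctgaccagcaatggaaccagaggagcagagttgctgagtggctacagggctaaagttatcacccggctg

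No match to any of the 5 motifs was found in the 250 bases of Clock, Npas2, Per1, Per3 or Dbp, which says only that the letters were not in this window. Among all 33469 promoters of the table, 5.59% held CACGTG, 4.07% held CACGTT, 14.1% held AGGTCA, 2.04% held TTANGTAA and 1.59% held TGACGTCA within the same distance. A match is a string of letters and not a measured binding site.

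Reads assigned to genes ranged from 15449716 to 39986531 per rat, and the lowest count of any member in any rat was 12, for Npas2. No 2 rats had identical counts. Levels are given as CPM, read counts scaled to a common library size after normalization by the trimmed mean of M values, and each compares a gene with itself in other rats, since transcript lengths were not used. Hepatocyte markers such as Alb and Apoa1 summed to between 76182 and 380489 CPM in every rat. Because each library came from a piece of bulk tissue of the left lobe, fewer cells of a type and less RNA per cell cannot be told apart. The p-values measure the spread between rats, which the labels describe as biological replicates.

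In every data set, transcripts of 7 of the 10 clock genes differed between rats of the same dose group more than those of nearly all other genes. Arntl ranged from 0.806 to 54.2 CPM over the 145 rats, a 67.3-fold range with a median of 13.6 CPM. Dbp ranged 121-fold, from 2.74 to 332 CPM with a median of 69.8 CPM. Nr1d1, which encodes REV-ERB alpha, ranged 92.6-fold, from 2.41 to 223 CPM. Npas2 and Per3 had comparable ranges of 69.9-fold and 66.0-fold, while Per1 ranged 48.3-fold and Per2 37.0-fold. The other 3 genes kept narrower ranges, of 3.77-fold for Clock, 7.23-fold for Nr1d2 and 11.9-fold for Cry1.

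This spread lay inside the groups that received the same dose. The vehicle controls of experiment A had Arntl levels of 1.02, 0.871, 4.88, 39.0 and 28.0 CPM. The same 5 rats had Dbp levels of 245, 224, 157, 4.21 and 11.0 CPM. The 3 rats with the lowest Arntl were thus the 3 with the highest Dbp, and no rat was high or low in both. At 1000 mkd the 5 rats had 4.51, 13.6, 9.67, 35.9 and 14.2 CPM of Arntl and 174, 24.9, 113, 8.01 and 54.2 CPM of Dbp, and both genes overlapped their controls.

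The same held in experiment B. Male controls on day 8 had 2.34, 1.83, 34.2, 6.87 and 19.4 CPM of Arntl and 168, 242, 2.74, 130 and 28.9 CPM of Dbp. Males given 1500 mkd until day 8 had 4.24, 7.10, 21.4, 4.24 and 21.8 CPM of Arntl and 174, 136, 25.3, 123 and 29.1 CPM of Dbp. Again each liver that was rich in one transcript was poor in the other, and the dosed rats lay within the range of the controls for both genes. On day 29 male controls had 3.62, 27.0, 33.1, 24.6 and 15.0 CPM of Arntl and 192, 28.4, 19.8, 39.8 and 75.2 CPM of Dbp. Males at 1500 mkd on day 29 had 4.11, 2.67, 37.2, 25.9 and 34.6 CPM of Arntl and 211, 260, 11.2, 16.3 and 4.87 CPM of Dbp. Here the dosed males reached beyond their controls at both ends of the Dbp range.

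In females the same opposition of both genes was seen from rat to rat. Female controls on day 8 had 5.45, 5.68, 23.8, 19.5 and 7.96 CPM of Arntl and 195, 116, 21.2, 30.1 and 121 CPM of Dbp. Females at 1500 mkd on day 8 had 9.80, 13.1, 14.8, 54.2 and 6.47 CPM of Arntl and 69.8, 60.8, 27.5, 7.89 and 91.4 CPM of Dbp. The dosed group held the female with the most Arntl and the least Dbp of that day. On day 29 female controls had 8.01, 13.1, 2.72, 33.3 and 20.7 CPM of Arntl and 79.2, 59.5, 137, 20.1 and 48.0 CPM of Dbp. Females at 1500 mkd on day 29 had 18.7, 13.6, 10.3, 34.5 and 8.72 CPM of Arntl and 38.6, 25.3, 52.7, 9.43 and 82.3 CPM of Dbp, and the groups overlapped.

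**Figure D1:**
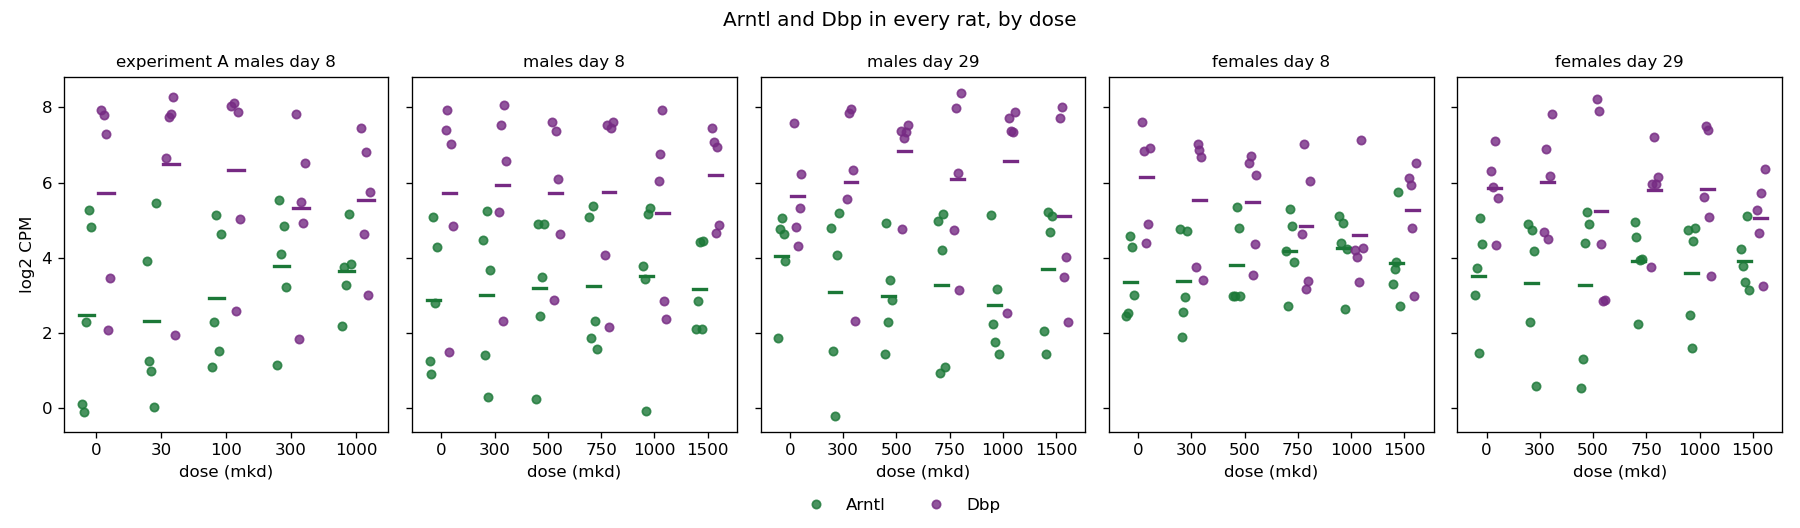
Arntl (green) and Dbp (purple) in every rat on the log2 CPM scale, by acetamide dose in mkd, with 1 panel for each data set, 5 points for each gene and dose, and a bar at the mean. Points of 1 gene and dose are spread sideways only to be seen, and both genes are spread over several log2 units in every dose group.

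The difference log2 CPM of Dbp minus log2 CPM of Arntl places each liver between both extremes of this axis. It was below 0, with more Arntl than Dbp reads, in 43 rats and above 0 in 102 rats. Every one of the 29 groups spanned at least 5.09 log2 units, and the widest, experiment A at 30 mkd, spanned 11.8 log2 units. Medians by data set were 3.30 in experiment A, 3.10 and 3.13 in males on days 8 and 29, and 1.52 and 1.70 in females on days 8 and 29. Medians of single dose groups varied more. In females on day 8 they were 3.91, 3.73, 3.22, 0.45, -0.36 and 2.21 from 0 to 1500 mkd. In males on day 29 they were 0.69, 2.26, 4.64, 2.06, 5.48 and -0.66 in the same order of doses. Whether the difference of Dbp and Arntl changed with dose was not tested. The lowest and highest rats were at -3.71 and 8.26 in experiment A, and at -2.77 and 5.14 in females on day 8, where the axis was shortest.

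Within dose groups the SD of log2 CPM placed Dbp among the 31 most variable genes in every data set. Its SD was 2.39 in experiment A (rank 9 of 11323 genes), 2.25 in males on day 8 (rank 7), 2.04 in males on day 29 (rank 13), 1.54 in females on day 8 (rank 31) and 1.62 in females on day 29 (rank 29). The SD of Arntl was 1.95, 1.87, 1.76, 1.10 and 1.52 in the same order. In each data set 7 of the 10 members were among the 5% of genes with the largest SD. The median SD of the members was between 1.06 and 1.29, against 0.288 to 0.314 for all genes tested. Clock, Nr1d2 and Cry1 were the members outside the top 5% in 4 data sets, with SDs of 0.455 to 0.584. In females on day 8 Cry1 entered with an SD of 0.896, and Per2 left with an SD of 0.594.

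Whether the members moved together from rat to rat was asked by fitting each gene to the log2 CPM of Arntl, with dose group held fixed, across all genes tested (edgeR quasi-likelihood test, Benjamini-Hochberg adjusted p of at most 0.05). Between 7 and 8 of the 9 other members were called in each data set. The share of all genes called was 6.24% in experiment A, 12.3% in males on day 8, 9.2% in males on day 29, 12.7% in females on day 8 and 13.9% in females on day 29. Clock, Npas2, Per3, Nr1d1, Nr1d2 and Dbp were called in all 5 data sets and had the same sign in each, the first 2 rising and the other 4 falling as Arntl rose.

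The partners of ARNTL rose with it. Npas2 rose by 0.71 ± 0.04 (SE) log2 units for each log2 unit of Arntl in experiment A, by 0.98 ± 0.05 in males on day 8 and by 0.91 ± 0.06 in males on day 29. In females it rose by 1.14 ± 0.09 on day 8 and 0.87 ± 0.09 on day 29. Clock, whose range was narrow, rose in parallel but less, by 0.24 to 0.34 log2 units, and its adjusted p was at most 1.75e-05 in every data set.

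The genes of the opposite limb fell. Dbp fell by 1.05 ± 0.13 log2 units per log2 unit of Arntl in experiment A, by 1.04 ± 0.12 and 0.98 ± 0.11 in males on days 8 and 29, and by 1.35 ± 0.08 and 0.97 ± 0.09 in females on days 8 and 29. Dbp was nearly level among livers low in Arntl and fell steeply among those high in it, so that a straight slope only summarises the relation. Per3, which encodes a PER protein with a minor role in the core loop, had slopes of -0.85, -0.80, -0.78, -0.89 and -0.74 in the same order of data sets. Slopes of Nr1d1 in the same order were -0.39, -0.33, -0.40, -0.89 and -0.35, and those of Nr1d2, which encodes REV-ERB beta, were -0.23, -0.19, -0.25, -0.32 and -0.15. Nr1d1 and Nr1d2 had the largest adjusted p of these 4 genes, 0.0306 and 0.0408, in experiment A and in females on day 29 respectively. The Nr1d1 call in experiment A was lost in 6 of 8 alternatives, among them the fits without replicate number 2, 3, 4 or 5 of every group, with a highest edgeR adjusted p of 0.21. The Nr1d2 call in females on day 29 was likewise lost in 6 of 8, among them the fits without number 1, 3, 4 or 5, with a highest edgeR adjusted p of 0.214. Nr1d1 was also lost in 4 of 8 alternatives in females on day 29, in 2 of 8 in males on day 8 and in 1 of 8 in males on day 29, with highest edgeR adjusted p of 0.0966, 0.218 and 0.219, and Nr1d2 in 1 of 8 in females on day 8.

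Per2, which encodes a main repressor of the loop, fell with Arntl in 4 data sets, by 0.54 ± 0.06, 0.41 ± 0.04, 0.43 ± 0.06 and 0.45 ± 0.06 log2 units in experiment A, males on day 8, males on day 29 and females on day 29. In females on day 8 its slope was -0.10 ± 0.09 (edgeR adjusted p = 0.532). Per1 and Cry1 were the least coupled members. Per1 was called in males on day 8 (0.37 ± 0.10, edgeR adjusted p = 0.0101) and in females on day 8 (0.98 ± 0.24, edgeR adjusted p = 0.0089), and had slopes of -0.21, -0.20 and 0.08 in the other 3 data sets. The first call was lost in 4 of 8 alternatives, among them the fits without replicate number 1 or 5, with a highest edgeR adjusted p of 0.178. The second was lost in 2 of 8, among them the fit without number 4, with a highest edgeR adjusted p of 0.105. Cry1 was called only in females on day 8, with a slope of 0.61 ± 0.11, and had slopes of 0.02 to 0.11 elsewhere. That call was lost in 1 of 8 alternatives, with doses up to 500 mkd only (edgeR adjusted p = 0.0502).

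The slopes of females on day 8 were then set against the mean of the other 3 data sets of experiment B in a joint fit, a comparison chosen after the slopes were seen. Cry1 had a slope 0.56 ± 0.11 log2 units higher (edgeR adjusted p = 0.00173) and Per1 a slope 0.89 ± 0.24 higher (edgeR adjusted p = 0.0482), against 0.593% of all genes called. Nr1d1 was lower by 0.52 ± 0.14 and Per2 higher by 0.34 ± 0.09, with edgeR adjusted p of 0.058 and 0.0589. The same females had the smallest within-group SD of Arntl, 1.10 against 1.52 to 1.87 in the other data sets of experiment B, and the largest of Per1, 1.88 against 1.27 to 1.33. What part these spreads had in the slopes was not tested.

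**Figure D2:**
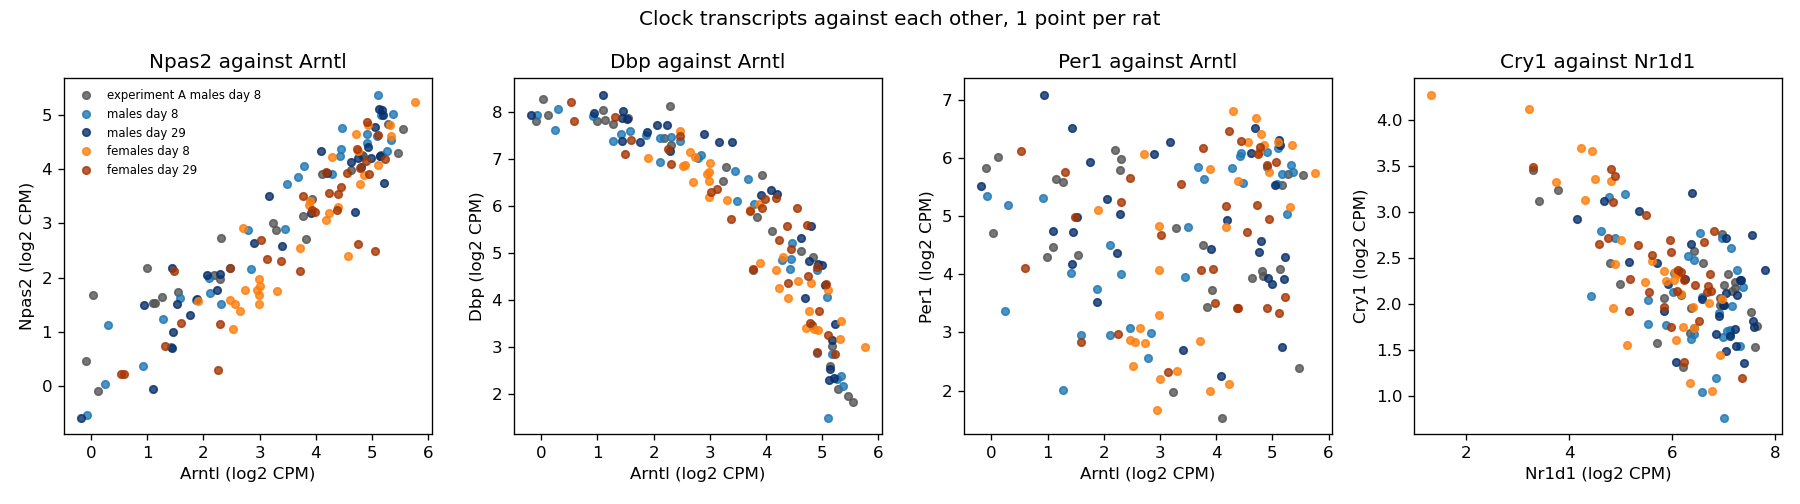
Levels of 4 pairs of clock genes in log2 CPM, 1 point for each of the 145 rats, coloured by data set. Npas2 rose with Arntl along a narrow band, Dbp fell with Arntl along a curve that steepened at high Arntl, Per1 scattered across the range of Arntl, and Cry1 fell as Nr1d1 rose.

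Correlations between deviations from the dose-group means described the same order, over 25 rats in experiment A and 30 in each other data set. The 2 genes of each point share a library and its normalization. Pearson r of Arntl with Npas2 lay between 0.90 and 0.98 and Spearman rho between 0.84 and 0.97. For Arntl with Dbp r lay between -0.96 and -0.89 and rho between -0.96 and -0.94. Without the 2 rats farthest from the median of Arntl, r lay between 0.87 and 0.97 for Npas2 and between -0.96 and -0.89 for Dbp.

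Per3 and Dbp were the tightest pair of the falling limb, with r of 0.92 to 0.98 and rho of 0.92 to 0.97. Nr1d1 with Dbp gave r of 0.82 to 0.90, and Nr1d1 with Nr1d2 gave 0.73 to 0.88. Cry1 deviated against Nr1d1 in every data set, with r of -0.67 in experiment A, -0.53 and -0.48 in males, and -0.86 and -0.68 in females on days 8 and 29. Without the 2 rats farthest from the median Cry1 deviation, it stayed between -0.80 and -0.46. Arntl with Cry1 was weaker, at 0.04 to 0.25 outside females on day 8 and 0.70 in them. Per1 had no fixed sign against Arntl, with r of -0.39 in experiment A, 0.61 and -0.25 in males on days 8 and 29, and 0.66 and 0.07 in females on days 8 and 29.

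**Figure D3:**
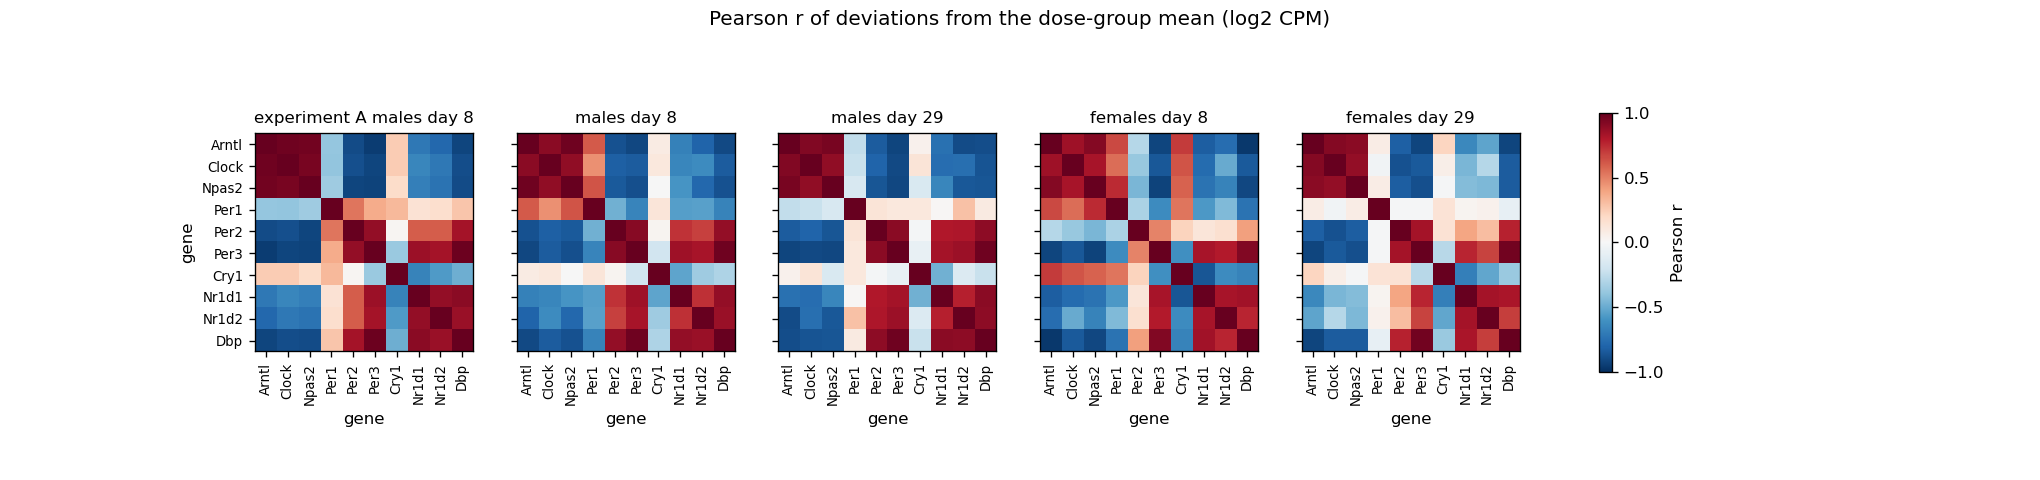
Pearson r between deviations of log2 CPM from the dose-group mean for all pairs of the 10 genes, with 1 map for each data set. Arntl, Clock and Npas2 formed a positive block against Per2, Per3, Nr1d1, Nr1d2 and Dbp, with r of Arntl and Dbp between -0.96 and -0.89, while the Per1 and Cry1 rows changed between data sets. The Per2 row was weaker in females on day 8, with r of -0.28 with Arntl, 0.12 with Nr1d1 and 0.16 with Nr1d2. In the other data sets r of Per2 with Arntl lay between -0.89 and -0.82.

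Of 11066 genes tested in all 5 data sets, 7 of the 9 other members stood near either end of likeness to Arntl, taken as the mean of the 5 Pearson r. Npas2 (0.94) and Clock (0.91) ranked 1 and 2 from the top. Per3 (-0.92) and Dbp (-0.92) ranked 1 and 2 from the bottom, followed by Nr1d2 at rank 15, Per2 at rank 18 and Nr1d1 at rank 24. Cry1 (0.26) and Per1 (0.14) lay away from both ends, at ranks 1631 and 2975 from the top, and the r of Per1 had opposite signs between data sets. Outside the members the 8 highest were Litaf (0.91), Clpx (0.91), Cldn1 (0.89), Tspan14 (0.89), Wdr91 (0.89), Tubb2a (0.89), Tmem252 (0.88) and Lnx2 (0.86). Cldn1 encodes a tight-junction protein and Clpx a subunit of a mitochondrial protease. The 8 lowest were Tef (-0.90), Hsd17b2 (-0.89), Gcnt2 (-0.87), Ifrd2 (-0.86), Ciart (-0.86), Slc25a10 (-0.85), Rev1 (-0.82) and Acy1 (-0.78). Tef encodes a PAR bZIP factor related to DBP, and Ciart a repressor of the CLOCK and ARNTL pair.

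Other clock genes were taken from a list of 15, of which 11 were in the tables and 10 or 11 were tested. Between 4 and 6 were called as coupled to Arntl in each data set. Nfil3, a repressor that competes with DBP for D-boxes, rose with Arntl in all 5, by 0.19 to 0.42 log2 units. Tef fell in all 5, by 0.33 to 0.48, and Ciart fell in all 5, by 0.51 to 1.42. Cry2 fell in 4 data sets, by 0.20 to 0.36, and Timeless in 3, by 0.19 to 0.35. Csnk1d, which encodes a casein kinase that marks PER proteins, rose in the 2 day-8 data sets of experiment B, by 0.14 and 0.22, and had slopes of -0.03 to 0.03 in the others.

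Of 12 tested genes from a list of 13 clock outputs, 7 were called in experiment A, 7 and 6 in males on days 8 and 29, and 3 and 6 in females on days 8 and 29. Gys2, liver glycogen synthase, fell with Arntl in all 5 data sets, by 0.18 to 0.31 log2 units. Por, which feeds electrons to cytochromes P450, fell in 4 data sets by 0.19 to 0.45. Cyp7a1, the rate-limiting enzyme of bile acid synthesis, fell by 0.60 in experiment A and 0.65 in females on day 29. Cdkn1a, the cell cycle inhibitor p21, rose in 4 data sets by 0.35 to 0.92.

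Fasting genes and genes of glucocorticoid response were counted beside these because both inputs reach the liver clock. Of 10 fasting genes, 2, 3, 4, 2 and 6 were called as coupled to Arntl in experiment A, males on days 8 and 29, and females on days 8 and 29. For this and the other lists, the share of all genes called was 6.24%, 12.3%, 9.2%, 12.7% and 13.9% in the same order. Whether a list exceeded that share was not tested. Pdk4, which spares glucose in fasted tissue, rose with Arntl in all 5 data sets, by 0.27 to 0.61. Of 8 glucocorticoid-responsive genes, 0, 3, 2, 2 and 2 were called, in the same order, by edgeR, and 2 of them had an unadjusted p under 0.05 in experiment A. Of the 7 macrophage, 4 stellate, 3 endothelial and 3 erythroid markers and the 3 to 5 T and NK markers tested, 0 were called as coupled to Arntl in any data set (edgeR), and at most 2 markers of any list and data set had an unadjusted p under 0.05. Of 8 hepatocyte markers 1 was called in females on day 8 (Tf) and 1 on day 29 (Apob), and of 2 cholangiocyte markers 1 (Krt19) in experiment A. The deviation of Arntl had r of -0.08 to 0.27 with that of log2 library size.

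All genes were also fitted to Per1, whose slope on Arntl changed sign between data sets, an alternative chosen after its slopes were seen. The share of genes called was 0.053% in experiment A, 3.59% and 0.381% in males on days 8 and 29, and 15% and 0.961% in females on days 8 and 29. Of the 9 other members, 4 were called in males on day 8, 7 in females on day 8 and 0 in each of the other 3 data sets (edgeR). At an unadjusted p under 0.05 there were 2 members in experiment A, Per2 and Per3, and 0 on day 29 in either sex. Tsc22d3, a glucocorticoid-induced leucine zipper gene, rose with Per1 in 4 data sets, by 0.73 ± 0.09, 0.55 ± 0.07, 0.57 ± 0.04 and 0.44 ± 0.07 log2 units in males on days 8 and 29 and females on days 8 and 29. Lpin1, a phosphatidate phosphatase induced by fasting and glucocorticoids, rose in the same 4, by 0.54 ± 0.10, 0.58 ± 0.09, 0.50 ± 0.06 and 0.68 ± 0.10. In experiment A their slopes were 0.32 ± 0.12 and 0.25 ± 0.17, with edgeR adjusted p of 0.212 and 0.434. Glucocorticoid-responsive genes called as rising with Per1 numbered 0, 4, 2, 3 and 2 of 8 in the order of the data sets.

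Whether acetamide shifted the level of any clock gene was asked for each dose against the vehicle control of its data set (edgeR, at least 1.5-fold and adjusted p of at most 0.05). None of 240 tests of a member over 24 comparisons was called, 7 had an unadjusted p under 0.05, and the lowest adjusted p was 0.125. DESeq2 and limma also called 0 members. The share of all genes called at any dose was 21.4% in experiment A, 0.177% and 6.43% in males on days 8 and 29, and 1.77% and 13.4% in females on days 8 and 29. Without replicate number 1 in every group of males on day 29, 1 member, Clock, was called.

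The estimates ran from -1.23 to 1.14 log2 units and had wide errors, with SEs of 0.22 to 1.09 log2 units over the 240 tests. At 1000 mkd in experiment A Dbp differed from the control by -0.78 ± 1.09 log2 units and Per3 by -0.55 ± 0.88. At 1500 mkd Dbp differed by -0.23 ± 1.06 and 0.50 ± 1.02 in males on days 8 and 29, and by -0.91 ± 0.85 and -0.73 ± 0.88 in females. A 2-fold difference, which is 1 log2 unit, was thus about the size of 1 SE of Dbp and not detectable with 5 rats a group. The median of the 10 members at the highest dose was -0.25, -0.20, 0.25, -0.11 and -0.18 log2 units in the order of the data sets, against 0.00, 0.00, 0.07, 0.00 and 0.00 for all genes tested. The narrow-ranged genes had smaller errors, as in Clock, at 0.00 ± 0.30 in experiment A and -0.18 ± 0.30, -0.34 ± 0.27, 0.01 ± 0.22 and 0.11 ± 0.32 in males on days 8 and 29 and females on days 8 and 29. The lowest adjusted p was that of Cry1 in males on day 29 at 1500 mkd, at 0.71 ± 0.29.

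A dose trend across all rats of a data set gave 0 of 50 member tests at an edgeR adjusted p of at most 0.05, with 2 at an unadjusted p under 0.05. Both were Nr1d2, with slopes per 1000 mkd of -0.57 ± 0.27 in experiment A (edgeR adjusted p = 0.0815) and -0.35 ± 0.16 in females on day 8 (edgeR adjusted p = 0.193). Its slopes in males on days 8 and 29 and in females on day 29 were -0.21 ± 0.15, -0.32 ± 0.17 and -0.19 ± 0.15. The trend was called in 45.9% of all genes in experiment A, 2.52% and 24.5% in males on days 8 and 29, and 5.44% and 27.3% in females on days 8 and 29. Among the other clock genes Csnk1e, which encodes a kinase of PER proteins, rose with dose in experiment A and in females on both days, by 0.82 ± 0.15, 0.31 ± 0.08 and 0.41 ± 0.10 log2 units per 1000 mkd.

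The comparison of the highest dose with the control was repeated with the level of Arntl held fixed, which was tried after the results above were seen. The SE of Dbp fell from 1.09 to 0.57 log2 units in experiment A and from 0.85 to 0.26 in females on day 8, and that of Npas2 from 0.95 to 0.25 in males on day 8. It hardly moved for Cry1 in 4 data sets, as in males on day 29 at 0.29 and 0.30, for Per1 in experiment A and on day 29, as in males at 0.72 and 0.70, or for Per2 in females on day 8, at 0.33 in both fits. In experiment A Per2 was then 1.07 ± 0.35 (edgeR adjusted p = 0.0228) and Per3 1.05 ± 0.35 log2 units higher at 1000 mkd (edgeR adjusted p = 0.0276). Both had the opposite sign without the adjustment, at -0.19 ± 0.65 for Per2 and -0.55 ± 0.88 for Per3. In males on day 29 Nr1d2 differed by -0.60 ± 0.14 log2 units at 1500 mkd (edgeR adjusted p = 0.0143). No other member was called at the highest dose, so that 2 of 9 members were called in experiment A and 1 of 9 in males on day 29. The share of all genes called was 21.7% in experiment A, 0.991% and 5.45% in males, and 0.661% and 14% in females on days 8 and 29. The 2 of 9 in experiment A thus lay near the share of all genes.

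These 3 calls depended on the gene held fixed. With Npas2 in place of Arntl the difference of Per2 in experiment A was 0.93 ± 0.30 (edgeR adjusted p = 0.0197) and that of Per3 0.60 ± 0.39 (edgeR adjusted p = 0.237). With Dbp in place of Arntl they were 0.37 ± 0.41 and 0.30 ± 0.21, and neither was called. With the square of Arntl as a further term, since the relation to Arntl was curved, Per2 was called at 1.24 ± 0.39 and Per3 was not, at 0.54 ± 0.28. Nr1d2 in males on day 29 was called with Npas2 (-0.63 ± 0.17) and with the square of Arntl (-0.59 ± 0.14) but not with Dbp (-0.40 ± 0.14, edgeR adjusted p = 0.0599), where Per2 was called instead (0.77 ± 0.24, edgeR adjusted p = 0.0398).

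**Figure D4:**
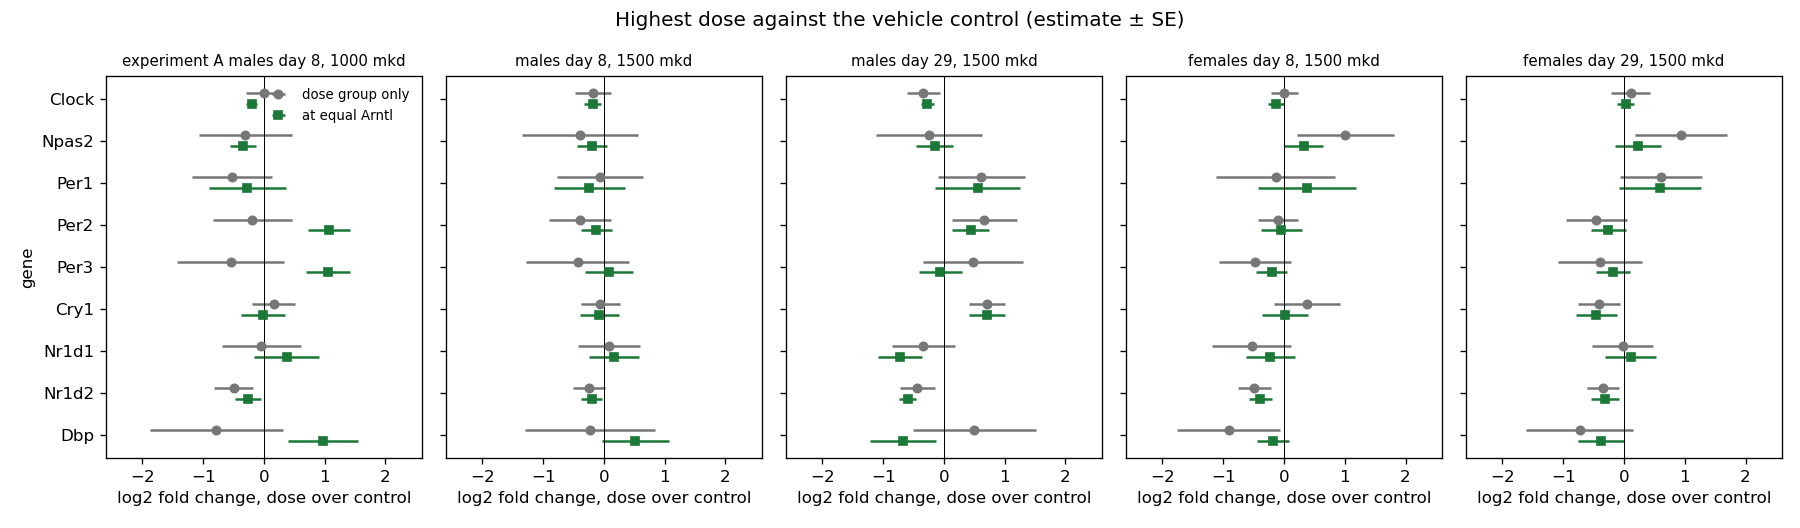
Log2 fold change of 9 members at the highest dose over the vehicle control (point) with its SE (bar), from the dose groups alone (grey) and with the level of Arntl held fixed (green), in each data set. Green bars are shorter than grey ones for Npas2, Per3 and Dbp in every panel, as in Dbp of females on day 8, where the SE fell from 0.85 to 0.26.

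Males and females of experiment B were compared over the 6 dose groups of each day in a joint fit of 120 rats. Sexes and days may have been collected in separate sessions or at other hours. Such a difference cannot be told apart from sex or day here, and was not tested. Nr1d1 was higher in males by 0.96 ± 0.24 log2 units on day 8 (edgeR adjusted p = 0.000475) and 0.91 ± 0.24 on day 29 (edgeR adjusted p = 0.000774). Per2 was higher in males by 0.73 ± 0.21 and 0.90 ± 0.21 on these days (edgeR adjusted p = 0.00205 and 0.000114). Dbp was called on day 8 alone, at 0.97 ± 0.41 (edgeR adjusted p = 0.0451), and was at 0.73 ± 0.41 on day 29. So 3 of 10 members were called on day 8 and 2 on day 29, each higher in males, against 12.1% and 15.8% of all genes called in either direction.

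In the joint normalization of experiment B, Nr1d1 on day 8 ran from 22.7 to 175 CPM with a median of 98.8 CPM in 30 males and from 2.25 to 116 CPM with a median of 53.9 CPM in 30 females. On day 29 it ran from 18.2 to 232 CPM with a median of 133 CPM in males and from 9.54 to 158 CPM with a median of 61.8 CPM in females. The sexes overlapped on both days, but 13 males of day 8 exceeded every female, and the mean log2 CPM was higher in males at 6 of 6 doses on both days. Per2 had medians of 28.1 and 44.8 CPM in males and 22.1 and 20.4 CPM in females on days 8 and 29, and was also higher in males at 6 of 6 doses on both days. Its highest male reached 152 CPM on day 29, against 79.3 CPM in the highest female.

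Nr1d2 was higher in males by 0.56 ± 0.12 and 0.44 ± 0.12 log2 units on days 8 and 29 (edgeR adjusted p = 3.6e-05 and 0.000766), at 6 of 6 doses each, but stayed under the 1.5-fold limit. Arntl itself differed by -0.03 ± 0.36 and 0.00 ± 0.36 log2 units in the fit. Its mean log2 CPM, however, was higher in males at only 0 of 6 doses on day 8 and 1 of 6 on day 29. Median Arntl was 11.4 CPM in males and 13.6 CPM in females on day 8, and 13.4 and 16.4 CPM on day 29. Cry1 differed by -0.34 ± 0.17 and -0.17 ± 0.17. Among the other clock genes Tef (0.83 and 0.70), Ciart (1.62 and 1.88) and Arntl2 (5.17 and 5.73) were called higher in males and Nfil3 (-0.93 and -0.84) lower on days 8 and 29. Arntl2 encodes a paralogue of ARNTL, and it was tested in the males alone when each data set was filtered separately.

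The sex differences were not called in the vehicle controls alone, 5 rats a group, where Nr1d1 was at 0.49 and 1.14 and Per2 at 0.55 and 0.37 log2 units on days 8 and 29 (edgeR adjusted p = 0.676, 0.167, 0.561 and 0.649). Of the 10 members, 0 on day 8 and 1 on day 29 had an unadjusted p under 0.05 in the controls alone. The Dbp call of day 8 was lost in 7 of 10 alternatives, among them the fits without replicate number 1, 2, 3 or 4 of every group. With the level of Arntl held fixed, which was added after the data were seen, Nr1d1 was higher in males by 0.84 ± 0.18 and 0.78 ± 0.18 and Per2 by 0.36 ± 0.14 and 0.81 ± 0.13 on days 8 and 29, the Per2 value of day 8 falling under 1.5-fold. In the same fit Npas2 was called higher in males on day 8, by 0.60 ± 0.14 (edgeR adjusted p = 0.000125), where it had been at 0.47 ± 0.36 and not called, and Dbp was at 0.29 ± 0.19 on day 8 and not called. Where slopes on Arntl differ between the sexes, such values depend on the level of Arntl. In females on day 8 the slopes stood apart by -0.52 ± 0.14 for Nr1d1 and 0.34 ± 0.09 for Per2 (edgeR adjusted p = 0.058 and 0.0589). Of 10 fasting genes 6 were called lower and 0 higher in males on each day, and whether this had a part in the sex differences was not tested.

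**Figure D5:**
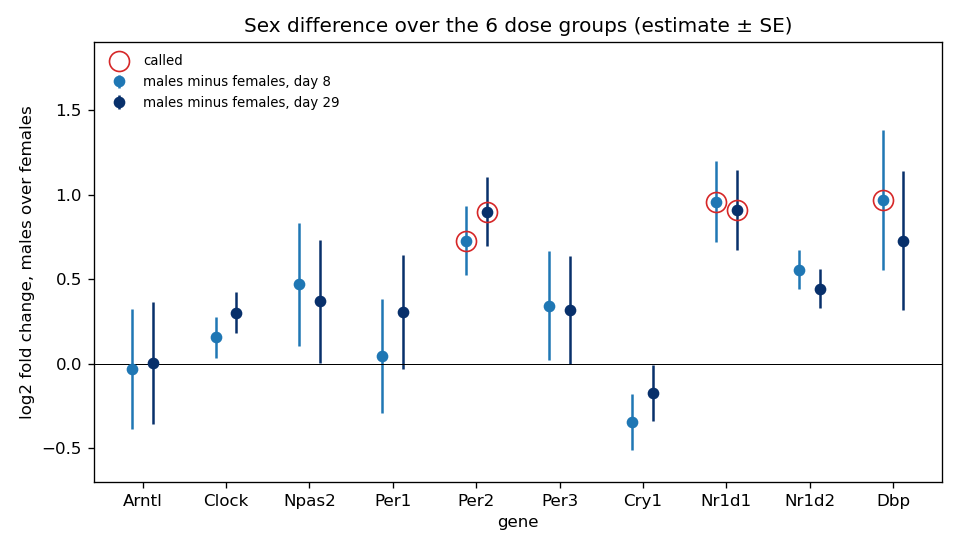
Log2 fold change of the 10 members in males over females of experiment B, averaged over 6 dose groups, on day 8 (light blue) and day 29 (dark blue), with SE bars and red rings on the genes called. Nr1d1 and Per2 lay between 0.73 and 0.96 on both days, while Arntl lay at -0.03 and 0.00 with an SE of 0.36.

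No member was called between day 29 and day 8 in either sex, against 3.11% of all genes in males and 3.63% in females, with 1 member in each sex at an unadjusted p under 0.05 (edgeR). Per2 in males came nearest, at 0.54 ± 0.20 (edgeR adjusted p = 0.028), under the 1.5-fold limit. It was called without replicate number 4 and with Arntl held fixed. limma called 0 members in both sexes. In the list of other clock genes Ciart and Nfil3 were higher on day 29 in males, by 1.16 and 0.59 log2 units.

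The response to 1500 mkd was also compared between the sexes and between the days by interaction terms. Between the sexes 0 members were called on either day, and the share of all genes called was 0% on day 8, with 510 genes at an unadjusted p under 0.05, and 0.441% on day 29. Between the days 0 members were called in either sex, and the share of all genes was 0% in males, with 547 genes at an unadjusted p under 0.05, and 0.0169% in females. In each of these 4 edgeR comparisons 0 members had an unadjusted p under 0.05.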

How the data were processed

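Liver messenger RNA was sequenced from 145 rats as stranded libraries. The deposited values are read counts per gene in 5 tables: the authors trimmed reads with Trimmomatic, aligned them with Bowtie2, which does not place reads across introns, to the UCSC Rn6 rat genome and counted them with HTSeq, all versions not given in the sources used here. Lines of the tables that name no gene held 35.5 to 67.1% of a rat's total count, gene counts included, in experiment B and were left out. Male vehicle controls of day 29 carry the label of the first experiment but the strain and titles of experiment B, and were placed in experiment B. Counts were normalized by trimmed mean of M values, filtered with filterByExpr and fitted with edgeR 4.0.16 (quasi-likelihood test, Benjamini-Hochberg adjustment) in R 4.3.3, each data set separately for dose, trend and coupling, and experiment B jointly for sex, day and interactions. Calls required 1.5-fold and an adjusted p of at most 0.05, or the latter alone for slopes. Log2 CPM used a prior count of 2. Alternatives used DESeq2 1.42.0, limma 3.58.1, other filters, a replicate block and left-out rats. The fits were tested on simulated data. Members and gene lists were chosen with earlier results of these data known. All members were named, other listed genes only where called in a comparison, and the 8 genes at each end of likeness to Arntl.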

Additional observations from a re-analysis of the deposited data

Results flagged for a closer look

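Each member was screened in each group of 5 rats for a rat set apart from the other 4 by more than 0.71 of the range on the log2 scale. Of 290 sets of 5 values 23 held such a rat, 16 at the low end and 7 at the high end, where chance gives about 1 in 20 sets, and the genes of 1 rat are not independent of each other. All values below are CPM, and no cause was tested. Rats of experiment A are numbered 1 to 5 within a group in the order of the records, which is not the number in their titles at 100, 300 and 1000 mkd.

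Male rat 2 at 500 mkd on day 29 stood apart in 4 genes, with Npas2 at 21.3 against 4.10 to 6.13 in its group, Per3 at 7.56 against 28.8 to 42.6, Nr1d1 at 60.0 against 138 to 168, and Dbp at 27.2 against 145 to 185. Male rat 1 at 1000 mkd on day 29 had Nr1d1 at 17.6 against 126 to 151 and Dbp at 5.71 against 164 to 236. Female rat 4 at 1000 mkd on day 8 went the other way, with Nr1d1 at 84.1 against 22.5 to 29.4 and Dbp at 142 against 10.3 to 19.0. In experiment A rat 5 at 30 mkd had Nr1d1 at 10.6 against 85.1 to 184 and Dbp at 3.82 against 101 to 312, and rat 2 at 300 mkd had Nr1d1 at 9.83 against 73.5 to 135.

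The other single values were Per1 at 16.5 in control rat 5 and at 55.6 in rat 2 at 100 mkd and Cry1 at 9.42 in rat 4 at 1000 mkd of experiment A. In males on day 8 they were Per1 at 15.5 in rat 2 at 1000 mkd, Nr1d1 at 24.3 in rat 2 at 500 mkd, and Nr1d2 at 61.8 in control rat 3 and at 35.3 in rat 3 at 750 mkd. Male control rat 1 on day 29 had Nr1d2 at 120 against 77.5 to 86.8. In females on day 8 Per3 was at 5.23 in rat 4 at 1500 mkd and Nr1d2 at 25.4 in rat 3 at 500 mkd. In females on day 29 Clock was at 67.7 in rat 4 at 1500 mkd and Npas2 at 1.15 in rat 3 at 750 mkd.

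The slope on Arntl differed between females on day 8 and the other 3 data sets of experiment B by 0.89 log2 units for Per1 and by 0.56 for Cry1, as a test of the difference itself in the joint edgeR fit. That comparison was chosen from these same data after the slopes were seen.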

How the results depend on the processing

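Of the counts of called members recomputed under an alternative, 251 stayed within 1.5 times the reported count and 12 did not. The count called at any dose, 0 as reported, became 2 (Per2 and Per3) in experiment A at equal Arntl and 1 (Per2) at equal Npas2 or at equal Arntl and its square. In males on day 29 it became 1 at equal Arntl or Npas2 (Nr1d2), 1 at equal Dbp (Per2) and 2 at equal Arntl and its square (Nr1d1 and Nr1d2), and it ran from 0 to 1 over fits without 1 replicate number. These adjustments for a clock gene were chosen after seeing the data, as were limma, the Per1 fits and the difference in slope. The sex counts of 3 on day 8 and 2 on day 29 became 0 and 0 with vehicle controls only. The count between the days in males, 0 as reported, became 1 (Per2) at equal Arntl and ran from 0 to 1 without 1 replicate number. The cause of these changes was not tested. Of the values of called members 307 stayed called, 39 did not and 0 reversed.

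Replicate numbers of experiment A only name the rats, in the order of the records, so its block pairs nothing. Nor did numbers pair the rats of experiment B, where deviations of same-numbered rats had mean correlations of -0.01 to 0.01 and lowest correlations of -0.54 to -0.34. With the replicate block 6, 7, 7, 7 and 5 members were coupled to Arntl, against 7, 8, 7, 8 and 7 without it, the lost calls being Nr1d1 in experiment A, Per1 on day 8 in both sexes, and Nr1d1 and Nr1d2 in females on day 29, 0 members were called at any dose or for trend, and 3 and 2 differed by sex on days 8 and 29. Precision was limited by the spread between 5 rats a group, with SEs of dose differences up to 1.09 log2 units.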

Other observations

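Outside the 10 members, the clock output list and the fasting list differed between the sexes of experiment B in genes that the report only counted. On days 8 and 29 Gys2, liver glycogen synthase, differed between males and females by -0.70 ± 0.12 and -0.71 ± 0.12 log2 units, and Cyp7a1 by -0.93 ± 0.27 and -1.66 ± 0.28. Ppara and Pparg, which encode nuclear receptors of lipid metabolism, were higher in males, by 0.59 ± 0.12 and 0.69 ± 0.12 for Ppara and by 0.92 ± 0.14 and 0.85 ± 0.14 for Pparg. Pdk4 had the largest difference of the 10 fasting genes on both days, at -1.99 ± 0.22 and -1.70 ± 0.22, and Fasn, fatty acid synthase, was at -1.76 ± 0.25 and -0.96 ± 0.24. Of 8 glucocorticoid-responsive genes Sgk1 was the gene called higher in males on both days, by 1.69 ± 0.17 and 1.46 ± 0.17. Lcn2 and Mt1a of the same list went the other way on day 29, at -1.16 ± 0.16 and -0.81 ± 0.20. Each of these was called by edgeR at 1.5-fold and an adjusted p of at most 0.05.

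Some listed genes around the clock were called by dose where the members were not. Among all genes tested, 1498 of 11451 were called in females on day 29 at 1500 mkd and 2424 of 11323 in experiment A at 1000 mkd. Whether the lists exceeded these shares was not tested. In females on day 29 at 1500 mkd Cdkn1a rose by 2.20 ± 0.53 log2 units, Wee1, a kinase that holds back mitosis, by 1.17 ± 0.40, Timeless by 0.91 ± 0.26 and Csnk1e by 0.65 ± 0.18. Csnk1e also rose by 0.62 ± 0.18 at 1000 mkd in experiment A. Fasn fell by 1.58 on the log2 scale at 1000 mkd in experiment A and by 1.97 at 1500 mkd in females on day 29, and Mt1a, a metallothionein, fell by 1.98 and 1.59 in the same comparisons.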
